A study of Mus musculus with 4 samples.

Results

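The genes described here are the D-type cyclins, the kinases they and cyclin E activate, their inhibitors and the Rb proteins those kinases phosphorylate, which together set the passage of a cell from G1 into S phase. They were chosen by symbol as Ccnd1, Ccnd2, Ccnd3, Cdk2, Cdk4, Cdk6, Cdkn1b, Cdkn2c, Rb1 and Rbl1, and 9 of the 10 were found, each on 1 of the 11160 features of the table of expressed genes. Cdk6 was not analysed here. Their RNA was measured by strand-specific RNA-seq after removal of ribosomal RNA, in neurosphere cultures of neural progenitor cells from the dorsal telencephalon of C57BL/6J embryos at embryonic day 12.5. The 4 libraries were 2 of wild-type (WT) cultures and 2 of cultures labelled as a full knockout of Mcph1, which encodes microcephalin, a regulator of chromosome condensation and of the entry into mitosis. All cultures grew in the same medium, with FGF, bFGF, insulin and the N2 and B27 supplements. Cultures from single embryos were joined within a genotype and their RNA was pooled again, so each library is a pool, and p-values measure only the spread between pools. The library numbers do not tie a WT pool to a knockout pool in the labels. Mcph1 itself stood at 21.1 and 21.6 CPM (scaled counts per 1000000 counts) in the WT pools, against 19.6 and 20.3 CPM in the other group. Summed over a whole gene, reads do not reveal the loss of an exon, so this is no check of the label, and the second group is therefore called KO-labelled.

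In G1, growth factor signals raise the D-type cyclins, which bind Cdk4 and Cdk6. These kinases, followed by Cdk2 with cyclin E, phosphorylate Rb1 and its relative Rbl1. Phosphorylated Rb proteins release the E2F transcription factors, which then drive the genes of DNA replication. Cdkn2c binds Cdk4 and Cdk6 and blocks them, while Cdkn1b binds and inhibits Cdk2 complexes and also associates with cyclin D complexes. In the embryonic cortex the length of G1 and the level of D-type cyclins are tied to the choice of a progenitor between further division and neuron formation.

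Promoter sequences from RefSeq (build GRCm38.p6) were found for 7 of the 10 genes, in 9 windows. Each was read as the 250 bases before a RefSeq gene start. They are shown for Cdkn2c, the gene with the largest genotype estimate, for Cdk4, and for both genes whose window holds an E2F motif. Capitals mark 3 motifs, searched on both strands. The first is the E2F motif (TTTCCCGC, TTTCGCGC, TTTGCCGC or TTTGGCGC), the second the E-box (CACGTG) bound by Myc and related factors, and the third the GC box (GGGCGG) bound by Sp1. For Cdkn2c, the window of the more upstream of its 2 starts is shown. Both Cdkn2c windows lie inside the gene as annotated in GENCODE M21. The bases after the Cdk2 window were found whole in no GENCODE M21 transcript of Cdk2.
Cdkn2c, chr4:109666757-109667006, minus strand: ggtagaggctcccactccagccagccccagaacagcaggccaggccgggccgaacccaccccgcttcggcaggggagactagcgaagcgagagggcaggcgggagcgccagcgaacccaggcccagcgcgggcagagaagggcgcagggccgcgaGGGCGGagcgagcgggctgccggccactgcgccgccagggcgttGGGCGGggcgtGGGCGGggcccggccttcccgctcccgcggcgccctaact
Cdk4, chr10:127063285-127063534, plus strand: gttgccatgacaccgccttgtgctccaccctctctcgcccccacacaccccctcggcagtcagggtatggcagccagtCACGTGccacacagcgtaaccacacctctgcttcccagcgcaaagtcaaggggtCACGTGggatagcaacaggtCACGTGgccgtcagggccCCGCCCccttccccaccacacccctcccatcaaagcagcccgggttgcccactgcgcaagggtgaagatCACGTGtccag
Cdk2, chr10:128705052-128705301, minus strand: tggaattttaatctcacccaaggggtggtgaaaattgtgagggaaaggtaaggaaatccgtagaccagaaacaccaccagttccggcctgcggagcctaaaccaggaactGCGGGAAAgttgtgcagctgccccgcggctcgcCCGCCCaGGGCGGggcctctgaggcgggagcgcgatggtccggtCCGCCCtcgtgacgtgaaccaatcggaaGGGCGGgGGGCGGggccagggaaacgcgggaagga
Rbl1, chr2:157204535-157204784, minus strand: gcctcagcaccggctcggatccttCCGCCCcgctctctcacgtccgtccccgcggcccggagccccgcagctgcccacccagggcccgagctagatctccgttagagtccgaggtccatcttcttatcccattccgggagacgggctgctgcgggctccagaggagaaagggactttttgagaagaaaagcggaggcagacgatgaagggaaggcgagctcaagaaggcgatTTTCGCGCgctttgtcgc
The Cdk2 window holds 1 E2F motif and 5 GC boxes, and the Rbl1 window 1 E2F motif and 1 GC box. The Cdk4 window holds 4 E-boxes and 1 GC box, and the Cdkn2c window shown 3 GC boxes. The window of the other Cdkn2c start holds 0 E2F motifs, 0 E-boxes and 0 GC boxes. The Cdk2 and Rbl1 windows are shown because of their E2F motif. Of all 9 windows of these genes, 2 hold an E2F motif, 2 an E-box and 7 a GC box. Among all 32851 windows of this length, 1.86% hold an E2F motif, 6.02% an E-box and 32.7% a GC box. These are matches of letters and show no binding, which was not measured.

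The 9 genes did not move together, and 0 passed the test of a genotype difference. Values were tested on the log2 scale with limma over 10971 features, which called 0% of features higher and 0% lower at an adjusted p under 0.05. The smallest adjusted p was 0.655, and 832 features, or 7.58%, had an unadjusted p under 0.05. The quasi-likelihood test of edgeR on reads recovered from the table likewise called 0 (866 had p below 0.05 before adjustment), while DESeq2 called 21 (0.188%) and edgeR's exact test 20 (0.183%), and none of these was among the 9 genes. Reads recovered per library ranged from 5975471 to 22347416. The 9 genes had between 43 and 4923 reads in a library, and all passed the filter on low values. Of their estimates, 4 were above 0 and 5 below, with a median log2 fold change of -0.13, where the median of all features tested was 0.01.

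Cyclin D1 separated the KO-labelled pools from each other rather than the genotypes. Ccnd1, the D-type cyclin most directly induced by growth factors, stood at 103 CPM in WT 1, 99.1 in WT 2, 33.4 in KO 1 and 134 in KO 2. The WT pools were alike, and the KO-labelled pools lay on either side of them. The level in KO 2 was 4.00-fold that in KO 1 (95% counting interval 3.54 to 4.53), from 752 and 393 reads. Only 1.25% of the features tested differed as much between these pools on the log2 scale. Between genotypes the estimate was -0.59 on the log2 scale (SE 0.60, limma adjusted p = 0.793, 95% interval -2.03 to 0.85). Without KO 2 it was -1.60 and was called (adjusted p = 0.0154 by limma, with 1 pool left in that group, taken to vary like the others), and without KO 1 it was 0.41.

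The other D-type cyclins showed no such gap. Ccnd2, a D-type cyclin abundant in cortical progenitors, stood at 28.6 CPM in WT 1, 42.2 in WT 2, 32.0 in KO 1 and 38.1 in KO 2, and both KO-labelled values lay between the WT values. Its log2 fold change was 0.01 (SE 0.28, limma adjusted p = 0.998, 95% interval -0.67 to 0.69). Ccnd3, the third family member, was low in all libraries, at 6.39 CPM in WT 1, 7.23 in WT 2, 7.49 in KO 1 and 7.65 in KO 2. Both KO-labelled pools were above both WT pools, by a log2 fold change of 0.15 (SE 0.31, limma adjusted p = 0.904). With 43 to 158 reads per library, counting error alone spans a range wider than that gap: the counting interval of WT 2 over WT 1 ran from 0.810 to 1.61.

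The makeup of the D-type cyclin RNA differed in KO 1. Within a library, ratios between genes do not depend on the scaling. There were 3.58 Ccnd1 reads for each Ccnd2 read in WT 1 (95% counting interval 3.07 to 4.20), 2.35 in WT 2 (2.17 to 2.54), 1.05 in KO 1 (0.905 to 1.21) and 3.51 in KO 2 (3.02 to 4.11). The ratio in KO 1 was thus below that of the other 3 libraries, whose intervals overlap only for WT 1 and KO 2. Per length of transcript, Ccnd1 made up 78.4%, 72.4% and 78.8% of the summed level of the D-type cyclins in WT 1, WT 2 and KO 2, and 51.0% in KO 1. That summed level was 35.0 and 36.6 CPM per kb in WT, 17.5 CPM per kb in KO 1 and 45.4 CPM per kb in KO 2.

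**Figure D1:**
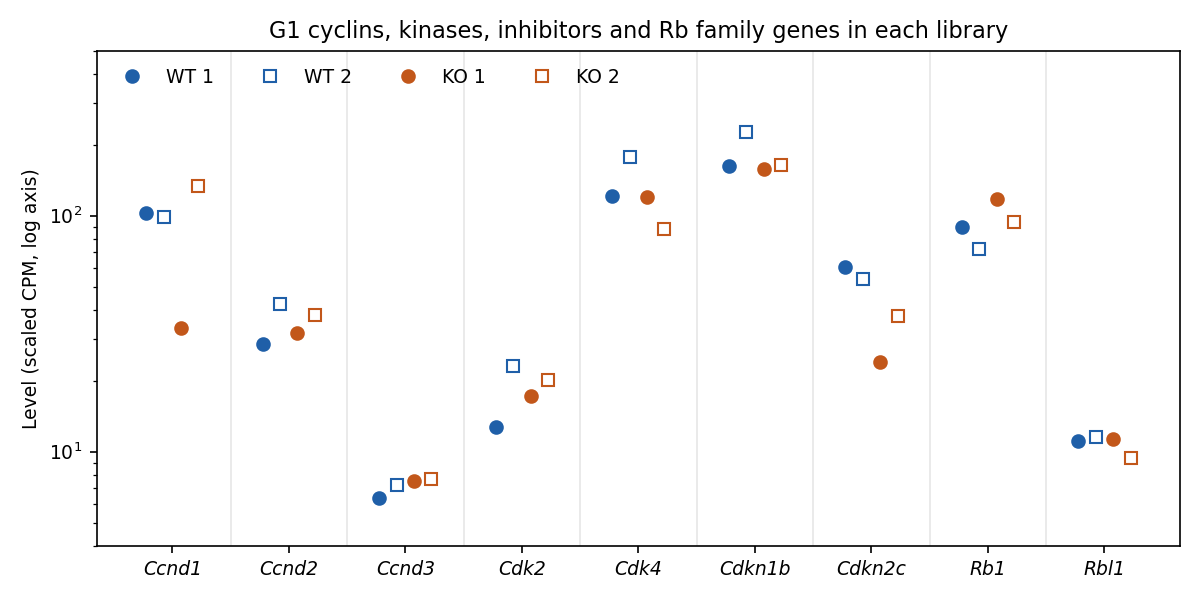
Level of each of the 9 measured genes in each library, in scaled CPM on a log axis; blue marks are WT and orange marks KO-labelled pools, circles pool 1 and squares pool 2. Ccnd1 stood at 33.4 CPM in KO 1 against 99.1 to 134 CPM in the other libraries, while both Cdkn2c values of the KO-labelled pools lay below the WT values.

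Neither kinase passed the test, and the estimates of both depended on single pools. Cdk4, the partner of the D-type cyclins, stood at 121 CPM in WT 1, 177 in WT 2, 120.5 in KO 1 and 87.9 in KO 2. Both KO-labelled pools lay below both WT pools, but KO 1 lay only just below WT 1. The log2 fold change was -0.50 (SE 0.29, limma adjusted p = 0.676, 95% interval -1.20 to 0.20). Cdk2, the partner of cyclins E and A, stood at 12.8 CPM in WT 1, 23.1 in WT 2, 17.3 in KO 1 and 20.1 in KO 2. The KO-labelled values lay between the WT values, and the log2 fold change was 0.12 (SE 0.35, limma adjusted p = 0.940, 95% interval -0.72 to 0.95). Without WT 2 the estimates were -0.23 for Cdk4 and 0.54 for Cdk2, and without WT 1 they were -0.78 and -0.31. In KO 2 there were 4.37 Cdk4 reads for each Cdk2 read (95% counting interval 3.56 to 5.41), against 6.98 in KO 1 (6.02 to 8.12), 9.45 in WT 1 (7.61 to 11.8) and 7.64 in WT 2 (6.96 to 8.39). The interval of KO 2 does not meet those of the other libraries.

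Ccnd1 and Cdk4 overlap genes on the opposite strand. The libraries were strand-specific, but whether the counting used strand is not given in the sources used here, and the part of the overlapping genes in these values was not tested. In GENCODE M21, 23.4% of the exon bases of Ccnd1 are shared with exons of its neighbour Oraov1 (named LTO1 there), and 19.7% of those of Cdk4 with Tspan31, a tetraspanin gene. Oraov1 stood at 39.3 and 38.2 CPM in the WT pools, 47.0 in KO 1 and 33.1 in KO 2. Tspan31 stood at 122 and 141 CPM in the WT pools, 101 in KO 1 and 139.7 in KO 2. Both Tspan31 and Cdk4 were highest in WT 2, while in KO 2 Tspan31 was close to WT 2 and Cdk4 was at its lowest. For the other 7 genes, each overlapping gene covers at most 8.11% of the exon bases.

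Of the inhibitors, Cdkn2c showed the largest estimate of the 9 genes. Cdkn2c, an INK4 inhibitor of Cdk4 and Cdk6, stood at 60.7 CPM in WT 1, 54.2 in WT 2, 23.9 in KO 1 and 37.7 in KO 2. Both KO-labelled pools were below both WT pools, and the WT pools differed less from each other than the KO-labelled pools did. The means were 57.5 ± 4.62 CPM for WT against 30.8 ± 9.77 CPM for the KO-labelled group (SD, n = 2 each), and the estimate of -0.93 on the log2 scale (SE 0.29) corresponds to 0.524-fold, with a 95% interval from -1.63 to -0.23. The unadjusted p was 0.0168 and the adjusted p 0.655 by limma, so the difference did not pass over all features. On all 4 libraries the adjusted p was 0.397 by edgeR's exact test and 0.445 by DESeq2. It was 0.599 by limma-voom and 0.629 by edgeR's quasi-likelihood test. The estimate was -0.60 without KO 1 and -1.27 without KO 2, each with a single pool left in the KO-labelled group.

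Cdkn1b, a Cip/Kip inhibitor and the more abundant of the pair, differed little. It stood at 163 CPM in WT 1, 225 in WT 2, 158 in KO 1 and 165 in KO 2. WT 2 was high, and the other 3 libraries lay within a narrow range. The log2 fold change was -0.25 (SE 0.25, limma adjusted p = 0.795, 95% interval -0.85 to 0.36). For each Cdkn1b read there were 0.373 Cdkn2c reads in WT 1 (95% counting interval 0.333 to 0.416), 0.241 in WT 2 (0.226 to 0.256), 0.151 in KO 1 (0.133 to 0.171) and 0.229 in KO 2 (0.196 to 0.266). On this ratio WT 2 and KO 2 overlapped. The Cdkn2c reads for each Cdk4 read were 0.503 in WT 1, 0.307 in WT 2, 0.198 in KO 1 and 0.429 in KO 2, so on that ratio the genotypes overlapped.

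Of the Rb family genes, Rb1 had an estimate above 0 and Rbl1 an estimate below but close to 0. Rbl2, a further family gene outside the 9, stood at 60.0 and 56.8 CPM in WT 1 and WT 2. In KO 1 and KO 2 it stood at 65.4 and 78.3 CPM (log2 fold change 0.29, SE 0.23, limma adjusted p = 0.741). Rb1, the retinoblastoma protein that holds E2F factors inactive, stood at 89.5 CPM in WT 1, 72.0 in WT 2, 117 in KO 1 and 94.0 in KO 2. Both KO-labelled pools were above both WT pools, though KO 2 exceeded WT 1 only slightly. The log2 fold change was 0.39 (SE 0.25, limma adjusted p = 0.698, 95% interval -0.21 to 0.98). Rbl1, a related pocket protein that is itself an E2F target, stood at 11.1 CPM in WT 1, 11.6 in WT 2, 11.3 in KO 1 and 9.43 in KO 2. The groups overlapped, and the log2 fold change was -0.13 (SE 0.28, limma adjusted p = 0.908, 95% interval -0.82 to 0.55). There were 8.05 and 6.21 Rb1 reads for each Rbl1 read in WT, and 10.4 and 9.96 in KO 1 and KO 2. The counting interval of WT 1 (6.37 to 10.3) overlapped those of both KO-labelled pools, from 8.67 to 12.5 and from 7.50 to 13.5.

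**Figure D2:**
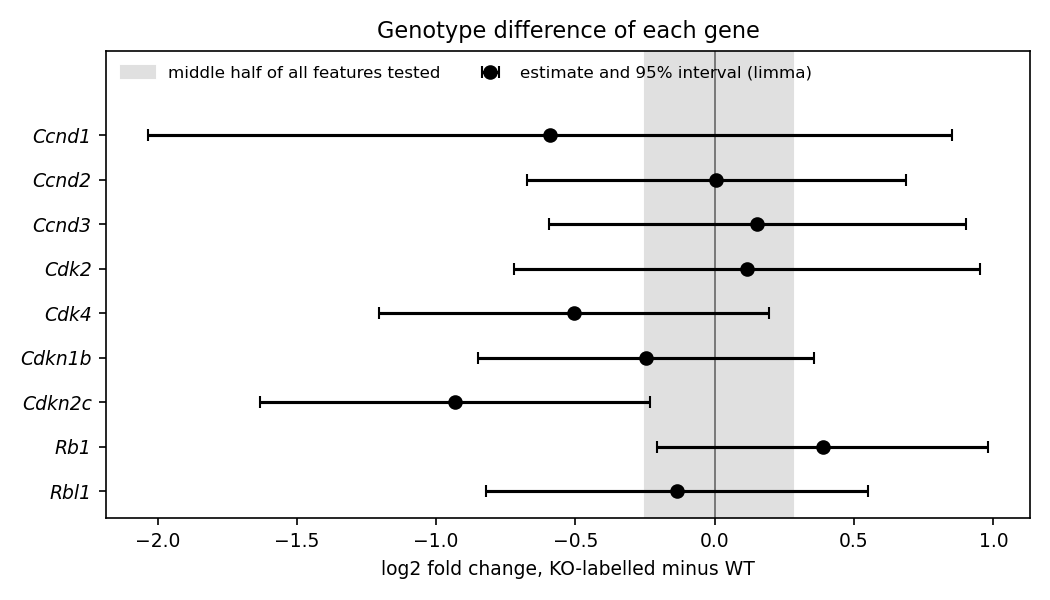
Genotype difference of each of the 9 genes as a log2 fold change, KO-labelled minus WT, with its 95% interval from limma; the grey band spans the 25th to the 75th percentile of all 10971 features tested. Cdkn2c is the gene whose unadjusted interval lies wholly on one side of 0 (-1.63 to -0.23), and that of Ccnd1 is the widest of the 9.

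Counted over the 9 genes, both KO-labelled pools lay below both WT pools for 2, Cdk4 and Cdkn2c, where 20.0% of all features tested did so. They lay above for 2, Ccnd3 and Rb1, against 21.1% of all features, and the groups overlapped for 5. An unadjusted p under 0.05 was found for 1 of the 9, against 7.58% of all features. These shares are near the background and are no result about the set.

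Differences between pools of a genotype were about as frequent among the 9 genes as among all features. The counting interval of the ratio between the WT pools excluded 1 for 6 of the 9 genes, against 56.9% of all features tested, and that between the KO-labelled pools for 5, against 58.2%. In WT the widest gap was that of Cdk2, at 1.81-fold higher in WT 2 (95% counting interval 1.45 to 2.28), followed by Ccnd2 at 1.47-fold, Cdk4 at 1.46-fold and Cdkn1b at 1.38-fold, all higher in WT 2. Only Ccnd1 differed more than 2-fold between the KO-labelled pools, where 9.97% of all features did, and 0 of the 9 did so between the WT pools, against 4.74% of features. Cdkn2c was 1.58-fold higher in KO 2 than in KO 1 (95% counting interval 1.31 to 1.89), while Cdk4 was 0.730-fold as high (0.657 to 0.809). Rb1 was lower in the second pool of each genotype, 0.804-fold in WT and 0.802-fold in the KO-labelled group, although the labels do not pair the pools. Counting intervals cover counting error only, not the variation between separate pools.

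**Figure D3:**
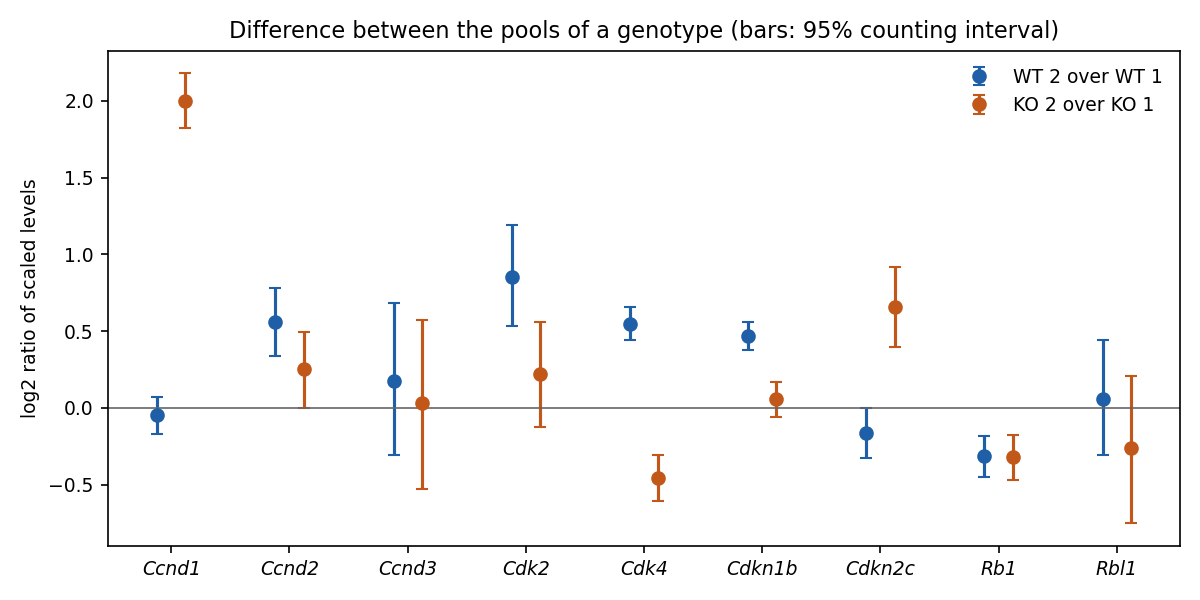
Ratio of the second to the first pool of each genotype for the 9 genes, on a log2 scale, with 95% counting intervals; blue is WT and orange KO-labelled. The Ccnd1 ratio of the KO-labelled pools, 4.00-fold, stands far from the others, which lie between 0.730-fold and 1.81-fold.

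Levels of different genes were compared per length, using the longest coding transcript of each symbol in GENCODE M21. In WT the mean levels in CPM per kb were 72.4 ± 19.2 for Cdk4, 42.7 ± 9.68 for Cdkn1b, 27.0 ± 0.646 for Ccnd1, 23.3 ± 1.87 for Cdkn2c and 17.3 ± 2.66 for Rb1 (SD, n = 2 each). Lower levels were found for Cdk2 at 7.46 ± 3.04, Ccnd2 at 5.59 ± 1.52, Ccnd3 at 3.22 ± 0.281 and Rbl1 at 2.33 ± 0.0673 CPM per kb (SD, n = 2 each). Of the neighbours in this order, only Cdk2 and Ccnd2 had overlapping WT values. In the KO-labelled pools, Cdk4 at 50.8 ± 11.2 and Cdkn1b at 35.5 ± 0.978 CPM per kb again stood highest, and Ccnd3 and Rbl1 lowest. There Ccnd1, at 8.94 CPM per kb in KO 1 and 35.8 CPM per kb in KO 2, spanned the values of Rb1 (25.2 and 20.2 CPM per kb) and Cdkn2c (9.68 and 15.3 CPM per kb). Per length, Ccnd1 thus exceeded Ccnd2 in each of the 4 libraries, and Cdkn2c lay above Rb1 in both WT pools and below it in both KO-labelled pools.

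Among the 9 genes, the patterns over the 4 libraries most like each other were those of Ccnd2 and Cdk2 (Euclidean distance 0.235 between log2 levels centred on each gene's mean), and the least alike were those of Ccnd1 and Rb1 (1.92). For Cdkn2c, the 5 nearest of 9900 features with a single symbol were Rps19, a ribosomal protein gene, Galk1, a galactokinase, Gpx4, a glutathione peroxidase, 1500011K16Rik and Anxa6, an annexin. Their distances over the 4 libraries ran from 0.0634 to 0.152. Being picked for its nearness to Cdkn2c, Rps19 had the same order of libraries, at 245 and 230 CPM in the WT pools, 101 in KO 1 and 153 in KO 2. Ribosomal protein genes share reads with processed pseudogenes, so its value is uncertain.

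Other genes of the G1 and Rb pathway lay on both sides of 0. Of 42 listed genes 39 were tested, 0 passed in either direction, 18 had estimates above 0 and 21 below, and their median log2 fold change was -0.10. Both KO-labelled pools lay below both WT pools for 6 of the 39 (15.4%) and above for 9, near the 20.0% and 21.1% of all features tested. The 8 with the smallest p began with Skp1a, a subunit of SCF ubiquitin ligases, at 838 and 797 CPM in the WT pools against 566 and 423 CPM in the KO-labelled pools (log2 fold change -0.74, SE 0.26, limma adjusted p = 0.655). Rbbp4, a histone-binding protein found in Rb complexes, followed at 238 and 298 CPM in the WT pools against 192 and 154 CPM in the KO-labelled pools (-0.63, SE 0.25). Ambra1, which directs the degradation of D-type cyclins, was at 9.45 and 9.43 CPM in the WT pools against 15.0 and 14.2 CPM in the KO-labelled pools (0.62, SE 0.27).

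The other 5 were Mnat1, an assembly factor of the Cdk-activating kinase (-0.59, SE 0.29), Cdkn1c, a Cip/Kip inhibitor (-0.63, SE 0.43), Ccna2, which encodes cyclin A2 (-0.40, SE 0.28), Fzr1, an activator of the APC/C ubiquitin ligase (0.43, SE 0.31), and E2f5, an E2F factor (-0.38, SE 0.28). The partners of Cdk2 in late G1 overlapped between genotypes. Ccne1 stood at 34.7 and 38.0 CPM in the WT pools against 27.7 and 35.2 CPM in the KO-labelled pools, and Ccne2 at 58.0 and 71.7 CPM against 46.3 and 72.3 CPM. Cdkn1a, the Cip/Kip inhibitor induced by p53, was chosen for its spread after its values were seen. It stood at 53.9 CPM in WT 1, 23.2 in WT 2, 22.9 in KO 1 and 96.5 in KO 2, so pools of 1 genotype differed more than the genotypes did. Like Ccnd1, it was highest in KO 2 and lowest in KO 1, where it was close to WT 2.

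The S phase genes under E2F control mostly had lower estimates. Of 48 listed genes 47 were tested, 0 passed, 42 (89.4%) had estimates below 0 and 5 above, and the median log2 fold change was -0.35, where 48.6% of all features were below 0. Both KO-labelled pools lay below both WT pools for 24 of the 47, or 51.1%, against 20.0% of all features tested. Pcna, which clamps DNA polymerases to their template, stood at 373 and 568 CPM in the WT pools against 258 and 239 CPM in the KO-labelled pools (-0.89, SE 0.28, limma adjusted p = 0.655). Rrm1, a subunit of the enzyme that makes deoxyribonucleotides, stood at 792 and 975 CPM against 523 and 529 CPM (-0.74, SE 0.25), and Rpa3, part of the complex that coats single-stranded DNA, at 57.8 and 40.9 CPM against 24.6 and 22.6 CPM (-1.04, SE 0.27). The remaining 5 of the 8 with the smallest p were Uhrf1, a reader of hemimethylated DNA (-0.69, SE 0.27), Pola1, the catalytic subunit of DNA polymerase alpha (-0.65, SE 0.27), the helicase genes Cdc45 (-0.57, SE 0.25) and Mcm5 (-0.64, SE 0.31), and the primase gene Prim1 (-0.62, SE 0.29). The list lay at similar levels in KO 1 and KO 2, unlike Ccnd1, as its median relative to the WT mean was -0.25 in KO 1 and -0.35 in KO 2. It was -0.21 in WT 1 and 0.21 in WT 2, so WT 1 lay close to the KO-labelled pools, and without WT 2 the median log2 fold change was -0.14.

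**Figure D4:**
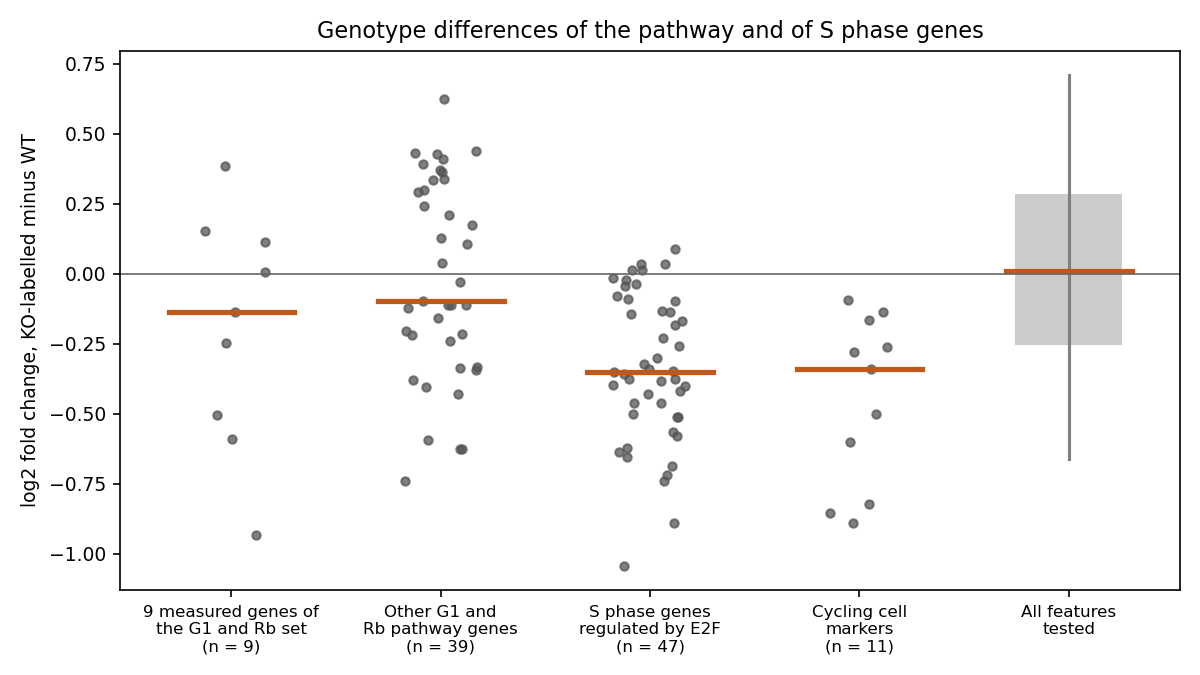
Genotype log2 fold changes (KO-labelled minus WT) of the 9 measured genes, of 39 other G1 and Rb pathway genes, of 47 S phase genes and of 11 markers of cycling cells; each point is a gene and each orange line a median. The last column gives all features tested, with the box from the 25th to the 75th and the line from the 5th to the 95th percentile of single features. The median line is at -0.35 for the S phase genes and at 0.01 for all features.

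Markers of cycling cells and of other cell types differed between the pools, and in a bulk sample fewer cells of a type and less RNA per cell cannot be told apart. All 11 tested markers of cycling cells had estimates below 0, where 48.6% of all features tested did. Both KO-labelled pools lay below both WT pools for 7 of them (63.6%), against 20.0% of all features. Cenpf, Cdc20, Aurka and Birc5 overlapped between genotypes. The smallest p was that of Ccnb1, at 212 and 291 CPM in WT against 130 and 138 CPM in the KO-labelled pools. The summed level of the 11 markers was 1814 and 2121 CPM in WT, 1264 CPM in KO 1 and 1543 CPM in KO 2. The progenitor markers Nes, Sox2, Vim and Fabp7 were measured in every library, and 9 of 10 markers of the oligodendrocyte lineage and 8 of 8 of astrocytes were also measured. In KO 1, where Ccnd1 was low, the 11 measured of 18 neuron markers summed to 2085 CPM, against 944, 1121 and 881 CPM in WT 1, WT 2 and KO 2. Map2 was the largest part of that sum but differed little, at 684 CPM in KO 1 against 533, 613 and 605 CPM. In the same order of libraries, Tubb3 stood at 374 CPM in KO 1 against 73.2, 94.7 and 39.0 CPM. Stmn2 stood at 224 CPM in KO 1 against 51.4, 50.4 and 26.2 CPM. Every measured neuron marker was highest in KO 1. Of the 11 neuron marker estimates 10 were above 0 and 1 below, with a median log2 fold change of 0.59. Their median relative to the WT mean was 1.50 in KO 1 and -0.23 in KO 2. Both KO-labelled pools lay above both WT pools for 2 of the 11, Syt1 and Celf4, and below for 0. That is near the 21.1% of all features tested that lay above. The 14 measured of 15 radial glia and progenitor markers summed to 13492 and 13819.6 CPM in the WT pools, 6829 in KO 1 and 9764 in KO 2, a sum carried mainly by Fabp7 (5313 and 5394 CPM in the WT pools, 2022 in KO 1 and 2266 in KO 2) and Vim (4762 and 4916 CPM in the WT pools, 2210 in KO 1 and 4216 in KO 2). Gene by gene that list had no common direction, with 7 estimates above 0 and 7 below and a median log2 fold change of 0.02. Those of Gli3 (1.24), Pax6 (0.38), Slc1a3 (0.26) and Prom1 (0.16) were above 0. The oligodendrocyte lineage markers summed to 1003 CPM in KO 1 and to 1189 to 1416 CPM elsewhere, with Olig1 at 73.7 CPM in KO 1 and 174 to 227 CPM in the other libraries. Astrocyte markers, at 2516, 1128, 1481 and 2161 CPM in WT 1, WT 2, KO 1 and KO 2, did not follow that division. The part of these cell types in the Ccnd1, Cdkn2c and S phase values was not tested.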

How the data were processed

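Each deposited value is a signal that the authors obtained as a read count divided by a factor for its library. FastQC 0.10.1, Picard 1.119, STAR 2.3.0, SAMtools 0.1.19 and DESeq 1.12.1 are named, without their roles, per the submitters' processing notes. For the build, annotation and counting rule, nothing is stated there (not given in the sources used here). In each library all values are multiples of 1 step (100% within 0.01 of a step), which gives back whole reads. Deposited library totals differ 4.10-fold, so the values were brought to 1 scale with TMM factors from edgeR 4.0.16, and filterByExpr (minimum count 10) removed low features. The test was limma 3.58.1 (R 4.3.3) with a mean-variance trend on log2(scaled value + 1). It was two-sided, p-values were adjusted by Benjamini-Hochberg, and the threshold was 0.05. This scale understates changes of low genes. Scaled CPM are the same values per 1000000. With 2 against 2 libraries, a permutation test could not go below p = 0.333. A level of 3 reads is 0.134 to 0.502 CPM. Alternatives were other scalings, filters, pseudocounts, tests (DESeq2 1.42.0, edgeR, limma-voom), a replicate block, a length and GC correction (values for 85.6% of features tested) and each library left out. The functions were tested on simulated data.

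The genes, lists and tests were chosen with earlier results of these data known. The genes named are the 10, the 8 of each list of other genes with the smallest p, and the 5 features nearest to the gene with the largest estimate. Outside this rule, some genes were named after their values were seen. They were Ccne1 and Ccne2 (partners of Cdk2), Cdkn1a, Rbl2, the overlapping genes Oraov1 and Tspan31, Mcph1 and single cell type markers. Cell type markers came from fixed lists; of microglia, endothelial, mesenchyme and red blood cell markers, 0 were among the features analysed here.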

Additional observations from a re-analysis of the deposited data

How the results depend on the processing

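Of the 9 genes' estimates under the alternatives, 137 kept their direction and their side of the threshold, 15 reversed and 1 gained a call. The 137 include settings that left every estimate as it was, namely no filter, the replicate block and the crossed pairing described below. The gained call was Ccnd1 without KO 2 (-1.60, adjusted p = 0.0154 by limma). With libraries left out in turn, Ccnd1 ranged from -1.60 to 0.41, Ccnd2 from -0.27 to 0.28 and Cdk2 from -0.31 to 0.54. Without WT 1, Ccnd2 was -0.27 and Cdk2 -0.31, and without KO 2 they were -0.13 and -0.0036. Ccnd2, near 0, also reversed with median-of-ratios scaling (-0.0014), edgeR's quasi-likelihood test (-0.023), DESeq2 (-0.031), limma-voom (-0.038), edgeR's exact test (-0.024) and the length and GC trend removed (-0.14). On the values as deposited, unscaled, the median of all features was -1.25, and Ccnd2 (-1.26), Ccnd3 (-1.10), Cdk2 (-1.15) and Rb1 (-0.88) reversed with it. There the pathway median was -1.36, the S phase median -1.62, and 8 features were called. DESeq2 called 21 features and edgeR's exact test 20. Leaving out libraries gave 0 to 176 calls, 21 without KO 1 and 176 without KO 2. The pathway median was 0.035 with the length and GC trend removed, and -0.068 to 0.027 with libraries left out. The S phase median ranged from -0.53 without WT 1 to -0.14 without WT 2.

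The deviations of same-numbered pools correlated at -0.304 over features. With 2 pools per group each genotype gives a single difference, so this cannot decide whether the numbers pair the pools. The replicate block called 0 features (475 had p below 0.05 before adjustment) and left every estimate as it was. A crossed pairing, chosen after seeing the data, gave 0 calls too (1485 before adjustment). Cdkn2c, Cdk4, Cdkn1b and Rbl1 kept their direction under every alternative run, and Rb1 and Ccnd3 under all but the unscaled values, which lowered the median of all features. Sizes were less stable: with libraries left out in turn, Cdk4 ranged from -0.78 to -0.23, Cdkn1b from -0.48 to -0.014 (without WT 2), Rbl1 from -0.26 to -0.014 (without KO 2), Rb1 from 0.23 to 0.54 and Ccnd3 from 0.065 to 0.24. Genes with under 100 reads in a library, such as Ccnd3, are limited by depth.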
